A study of Mus musculus with 10 samples.

Results

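The laminins, nidogens and perlecan are the secreted proteins that, with collagen IV, build the basement membrane network. They were taken here as a group of 10 genes chosen by name, comprising the laminin alpha chain genes Lama1, Lama2, Lama4 and Lama5, the beta chain genes Lamb1 and Lamb2, the gamma chain gene Lamc1, the nidogen genes Nid1 and Nid2, and the perlecan gene Hspg2. All 10 were among the 57180 genes of the RNA-seq count table. In the CUT&Tag table, 52 of 69418 regions were assigned to them. The genes were grouped with their RNA differences between genotypes already known, so those differences are given as a description. The CUT&Tag reads are a separate measurement.

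The study compared neural stem and progenitor cells (NSPCs) from the brains of Mina53-KO mice with WT NSPCs, both untreated. Mina53, the product of Riox2, is a nuclear JmjC-domain protein, and the series title concerns arginine methylation of histone H4. RNA-seq covered 3 KO and 3 WT libraries, and CUT&Tag, which cuts chromatin near an antibody-bound target, covered 2 KO and 2 WT libraries. The labels give no strain, age, brain region, allele, knockout method or antibody, and do not say whether libraries of a genotype came from separate animals or cultures, so p-values measure the spread between these libraries, which may be technical.

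In a basement membrane, a laminin is a trimer of an alpha, a beta and a gamma chain. The alpha chain carries the globular end that binds integrins and dystroglycan on the cell, and it largely decides which receptors a laminin engages. Nidogens link laminin, through its gamma chain, to collagen IV, and perlecan, a large heparan sulfate proteoglycan, ties the network to growth factors and to other matrix proteins. In the brain such networks surround blood vessels and the pial surface, where radial glial endfeet attach, and laminin-rich deposits touch the stem cells of the ventricular wall.

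RNA-seq libraries held 19922983 to 25939348 counts each, and 15298 genes passed the filter on low counts. Levels are CPM, counts scaled to the size of their library. Riox2 averaged 3.58 CPM in KO and 18.5 CPM in WT libraries. Summed neural stem and radial glia markers lay at 7320 to 8247 CPM in KO and 6777 to 7110 CPM in WT libraries. Cdh5 and Cldn5, which define endothelium, were at 0 in all 6 libraries, as were the microglial genes Cx3cr1 and Itgam. Of the listed markers, 8 of 10 endothelial and 6 of 6 microglial genes were under 1 CPM in all libraries. The endothelial genes Flt1 and Kdr were above this, at 56.4 and 1.61 CPM in KO and 25.9 and 0.875 CPM in WT libraries on average. The mitochondrial share of counts was high in KO 3 (4.64%) and WT 2 (5.71%) and lay at 2.31% to 3.52% in the other 4 libraries. CUT&Tag libraries held 3369232 and 4038765 reads in regions for KO, against 2913959 and 3125267 for WT.

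Promoter sequence was at hand for 6 of the 10 genes, from RefSeq on the GRCm38.p6 build, as 250 bases before to 50 bases after the gene's start. The promoters of Nid1 and Lamb1 are shown because their RNA was called different between the genotypes, and that of Lama2 because its CUT&Tag reads stood furthest apart and its base composition differs from theirs. Each is written 5′ to 3′ on the strand of the gene, and capitals mark GGGCGG or, where it lies on the other strand, CCGCCC, the core of the GC box.
Nid1, chr13:13437352-13437651, plus strand: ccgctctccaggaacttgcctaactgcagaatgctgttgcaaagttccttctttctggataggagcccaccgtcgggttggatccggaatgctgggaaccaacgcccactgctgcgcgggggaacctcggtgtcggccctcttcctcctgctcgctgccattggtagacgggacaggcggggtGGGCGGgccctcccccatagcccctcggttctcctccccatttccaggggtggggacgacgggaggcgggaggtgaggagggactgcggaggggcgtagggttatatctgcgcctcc
Lamb1, chr12:31265043-31265342, plus strand: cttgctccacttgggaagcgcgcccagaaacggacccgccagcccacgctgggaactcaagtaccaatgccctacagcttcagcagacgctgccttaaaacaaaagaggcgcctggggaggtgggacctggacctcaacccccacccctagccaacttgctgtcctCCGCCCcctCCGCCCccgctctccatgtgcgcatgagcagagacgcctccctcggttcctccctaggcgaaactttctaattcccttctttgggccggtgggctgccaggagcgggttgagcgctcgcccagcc
Lama2, chr10:27616893-27617192, minus strand: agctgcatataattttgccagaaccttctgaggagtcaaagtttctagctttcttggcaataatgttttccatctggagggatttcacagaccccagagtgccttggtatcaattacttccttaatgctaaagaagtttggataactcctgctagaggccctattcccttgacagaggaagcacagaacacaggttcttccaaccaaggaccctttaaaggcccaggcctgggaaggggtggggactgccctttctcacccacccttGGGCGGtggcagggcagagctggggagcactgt
The Nid1 promoter was 64.7% G or C and held 20 CG dinucleotides, and that of Lamb1 was 63.7% G or C with 18 CG dinucleotides. The Lama2 promoter was 50.3% G or C with 1 CG dinucleotide, against a median of 52.7% and 7 over the 32851 promoters of the same length. Promoters not shown were of genes whose RNA was not called. That of Lama5 was 72.7% G or C with 24 CG dinucleotides, that of Hspg2 70.3% with 27, and that of Lamb2 44.0% with 4. Lama1, whose RNA was called, had no promoter at hand, so composition is not related to the calls here. GGGCGG occurred 1 time at Nid1, 2 times at Lamb1 on the other strand and 1 time at Lama2, and 35.7% of all promoters held it on either strand. It occurred 2 times on each strand at Lama5, 5 times at Hspg2 and 0 times at Lamb2. TATAAA, found in 13.6% of promoters on either strand, was in none of the 6. The matches describe the letters of these windows. The CUT&Tag coordinates below are on GRCm39, so the regions were not laid over these promoters.

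The RNA of 3 of the 10 genes was called different in Mina53-KO NSPCs. Lama1 and Lamb1 RNA rose and Nid1 RNA fell, whereas Lama2, Lama4, Lama5, Lamb2, Lamc1, Nid2 and Hspg2 were not called. Calls were made by edgeR's quasi-likelihood test at a Benjamini-Hochberg adjusted p under 0.05 over all tested genes, of which 3.43% were called, 1.77% as higher and 1.66% as lower in KO. Because the genes were grouped with this contrast known, nothing is read from their count against that background. The KO and WT libraries did not overlap for 4 of the 10, Lama1, Lama2, Lamb1 and Nid1, and for 19.0% of all tested genes. The median log2 fold change, KO over WT, was 0.10 over the 10 genes and 0.01 over all tested genes. In bulk RNA, fewer cells that express a gene and less RNA per cell cannot be told apart.

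**Figure D1:**
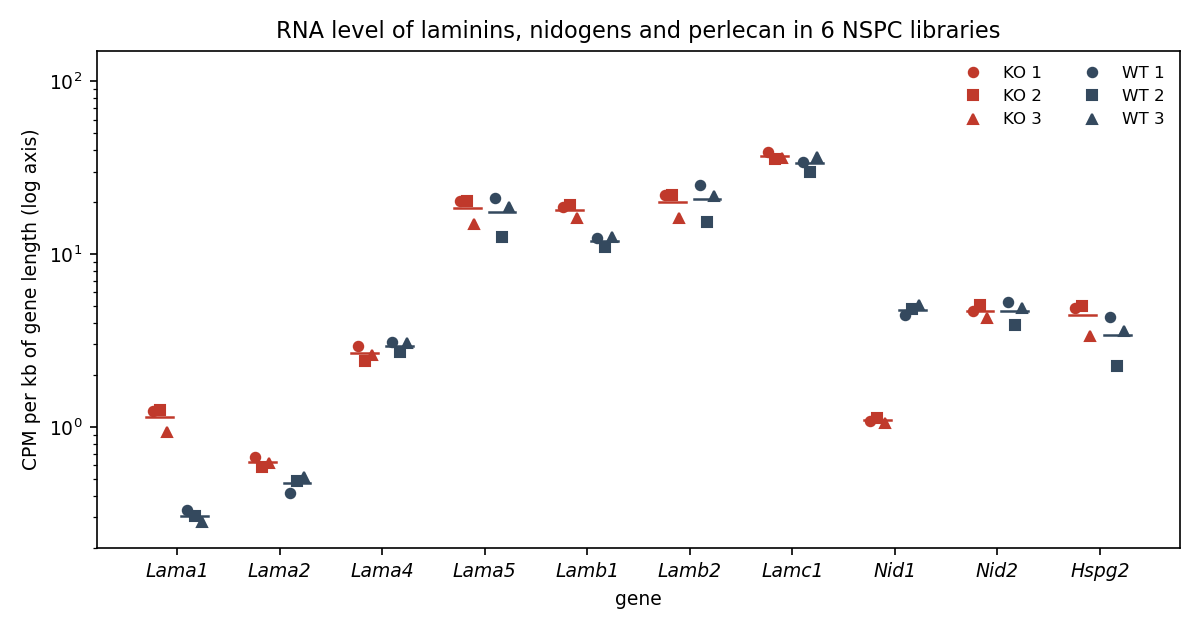
RNA level of each of the 10 genes in every library, in CPM per kilobase of gene length on a log axis, with KO libraries left of WT libraries and lines at the group means. Nid1 averages 1.09 CPM per kilobase in KO and 4.78 in WT libraries, and Lama1 averages 1.14 in KO and 0.307 in WT libraries.

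Among the alpha chains, Lama1 (ENSMUSG00000032796) encodes the chain of laminin-111, the laminin of the earliest embryonic basement membranes. It had 11.9, 11.9 and 8.87 CPM in KO 1, 2 and 3, against 3.17, 2.92 and 2.70 CPM in WT 1, 2 and 3. Every KO library was above every WT library, and KO 3 was the lowest of the KO libraries. The means were 10.9 ± 1.75 CPM in KO and 2.93 ± 0.233 CPM in WT libraries (SD, n = 3 each). The log2 fold change was 1.89 (SE 0.18), or 3.71-fold, with an edgeR adjusted p of 0.00157. The WT counts behind it were low, at 70 to 75 per library, against 228 to 287 in KO libraries.

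The other alpha chains were not called. Lama2 encodes the chain of the laminins of muscle and of brain vessels, loss of which causes a muscular dystrophy. It had 6.48, 5.61 and 5.96 CPM in KO libraries, against 3.97, 4.69 and 4.94 CPM in WT libraries. The groups did not overlap, but the log2 fold change of 0.41 (SE 0.16) had an edgeR adjusted p of 0.314. Lama4, the alpha chain typical of endothelial basement membranes, had 17.9, 14.6 and 15.8 CPM in KO libraries, against 18.7, 16.4 and 18.4 CPM in WT libraries, with overlapping groups and a log2 fold change of -0.15 (SE 0.13). Lama5, the alpha chain found in most mature epithelial and endothelial basement membranes, had 229, 229.7 and 171 CPM in KO libraries, against 240.3, 142 and 214 CPM in WT libraries. These groups overlapped too, with KO 3 and WT 2 the lowest of their groups, and the log2 fold change was 0.08 (SE 0.20).

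Of the beta chains, Lamb1 encodes the partner of most embryonic laminins and Lamb2 that of the laminins of synapses, the kidney filter and the vessel wall. Lamb1 (ENSMUSG00000002900) had 108, 111 and 93.8 CPM in KO libraries, against 72.0, 63.4 and 72.1 CPM in WT libraries. All KO libraries were above all WT libraries. The means were 104.0 ± 8.97 CPM in KO and 69.2 ± 4.97 CPM in WT libraries (SD, n = 3 each). The log2 fold change was 0.59 (SE 0.11), or 1.5-fold, with an edgeR adjusted p of 0.0324. That call was close to the threshold: leaving out KO 1 brought the edgeR adjusted p to 0.177, KO 2 to 0.151, WT 1 to 0.0506, WT 2 to 0.0899 and WT 3 to 0.154, with log2 fold changes of 0.52 to 0.62. Lamb2 had 123, 124 and 90.9 CPM in KO libraries, against 142, 86.1 and 122 CPM in WT libraries. The groups overlapped, and its log2 fold change was -0.05 (SE 0.20).

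Lamc1, the gamma chain shared by most laminins and the chain to which nidogens bind, was the most abundant of the 10 per length. It had 296, 271 and 272 CPM in KO libraries, against 262, 229 and 276 CPM in WT libraries. The groups overlapped, and the log2 fold change was 0.13 (SE 0.11, edgeR adjusted p = 0.758).

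Nid1 (ENSMUSG00000005397), which encodes nidogen-1 (entactin), had 6.62, 6.86 and 6.46 CPM in KO libraries, against 26.9, 29.4 and 30.9 CPM in WT libraries. The KO libraries lay within a narrow band well under every WT library. The means were 6.65 ± 0.200 CPM in KO and 29.1 ± 2.02 CPM in WT libraries (SD, n = 3 each), from 134 to 166 counts per KO library and 638 to 802 per WT library. The log2 fold change was -2.13 (SE 0.12), a level 4.38-fold lower in KO, with an edgeR adjusted p of 0.000293. Nid2, the paralog that can stand in for nidogen-1 in basement membrane assembly in mice, had 22.7, 24.9 and 20.7 CPM in KO libraries, against 25.7, 18.9 and 23.6 CPM in WT libraries. Its groups overlapped, and the means of 22.8 ± 2.08 CPM in KO and 22.7 ± 3.49 CPM in WT libraries (SD, n = 3 each) gave a log2 fold change of 0.0025 (SE 0.15).

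Hspg2, which encodes perlecan, had 69.4, 70.9 and 47.7 CPM in KO libraries, against 61.5, 31.8 and 50.6 CPM in WT libraries. The groups overlapped, and the spread within each genotype was wide, with KO 3 and WT 2 again the lowest of their groups. The log2 fold change of 0.39 (SE 0.25) had an edgeR adjusted p of 0.64. With the class of mitochondrial share, described further on, as a covariate, its log2 fold change was 0.41 and its edgeR adjusted p was 0.0215, in a fit that called 10.5% of all tested genes. With KO 3, WT 2 and WT 3 as a class against the others, the log2 fold change of Hspg2 was 0.20 (edgeR adjusted p = 0.514). Without KO 3 and WT 2 it was 0.32 (edgeR adjusted p = 0.2).

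Levels of different genes were compared as CPM per kilobase of the gene length given in the table. In KO libraries the order of mean levels was Lamc1, Lamb2, Lama5, Lamb1, Nid2, Hspg2, Lama4, Lama1, Nid1 and Lama2. In WT libraries it was Lamc1, Lamb2, Lama5, Lamb1, Nid1, Nid2, Hspg2, Lama4, Lama2 and Lama1. Lamc1 led with 36.7 ± 1.86 CPM per kilobase in KO and 33.5 ± 3.19 in WT libraries (SD, n = 3 each), and its range over libraries touched that of no other gene. In KO libraries the ranges of Lamb2, Lama5 and Lamb1 overlapped their neighbours' in that order, as did those of Nid2 and Hspg2 and of Lama1 and Nid1. In WT libraries the overlapping neighbours were Lamb2 and Lama5, and the run of Nid1, Nid2, Hspg2 and Lama4.

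The low end of the order was where the genotypes differed. Nid1 stood at 1.09 ± 0.0328 CPM per kilobase in KO and 4.78 ± 0.332 in WT libraries (SD, n = 3 each), which put it at percentile 21.0 of tested genes in KO and 40.7 in WT libraries. Lama1 stood at 1.14 ± 0.183 CPM per kilobase in KO and 0.307 ± 0.0245 in WT libraries, or percentiles 21.5 in KO and 7.88 in WT libraries. Lama1 was therefore last of the 10 in WT libraries, while in KO libraries Lama2 was last, at 0.626 ± 0.0452 CPM per kilobase (SD, n = 3). Lamc1 was at percentiles 85.0 in KO and 83.3 in WT libraries.

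Seen as a share of each chain's transcript pool, again per length, the nidogen pool changed its make-up most. Nid1 made up 18.9%, 18.1% and 20.0% of the nidogen pool in KO libraries, against 45.7%, 55.5% and 51.2% in WT libraries. The pool itself summed to 5.75, 6.22 and 5.31 CPM per kilobase in KO libraries, against 9.68, 8.70 and 9.93 in WT libraries, so its ranges did not overlap. With Nid2 at a similar level in both genotypes, nidogen transcripts were mostly Nid2 in KO libraries and near evenly divided between Nid1 and Nid2 in WT libraries.

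In the alpha chain pool, Lama1 made up 4.98%, 5.13% and 4.86% in KO libraries, against 1.33%, 1.91% and 1.25% in WT libraries. The groups did not overlap, yet Lama1 was a minor alpha chain transcript in both genotypes. Lama5 held 80.5 ± 2.20% of the pool in KO and 81.9 ± 3.37% in WT libraries (SD, n = 3 each). Lama4 held 11.8 ± 1.91% in KO and 14.3 ± 2.35% in WT libraries, and Lama2 held 2.77 ± 0.427% in KO and 2.32 ± 0.697% in WT libraries. The summed alpha chain level was 22.9 ± 3.23 CPM per kilobase in KO and 21.2 ± 4.64 in WT libraries. In the beta chain pool, Lamb1 made up 45.9%, 46.5% and 50.1% in KO libraries, against 33.0%, 41.8% and 36.5% in WT libraries. Those groups did not overlap, and the pool summed to 38.0 ± 4.91 CPM per kilobase in KO and 32.7 ± 5.85 in WT libraries. These shares use the same RNA values as the calls above and were not tested.

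**Figure D2:**
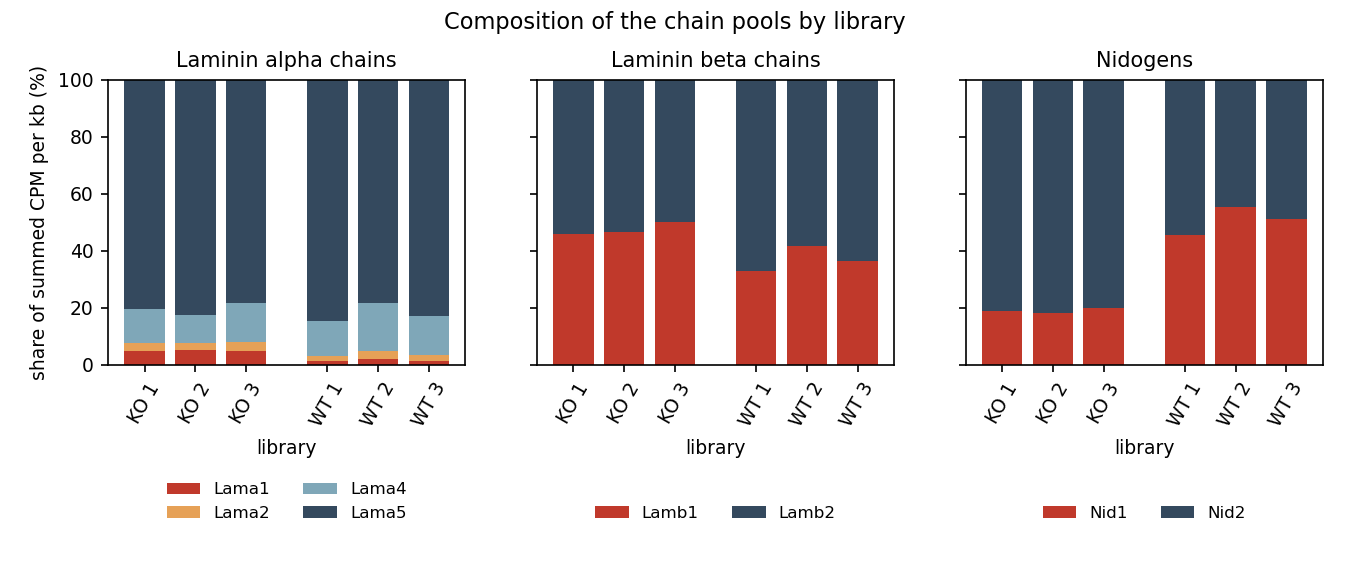
Share of the alpha chain, beta chain and nidogen transcript pools taken by each gene, in percent of summed CPM per kilobase, with 1 bar per library and KO libraries left of WT libraries. Nid1 takes 18.1% to 20.0% of the nidogen pool in KO and 45.7% to 55.5% in WT libraries, while Lama5 takes most of the alpha pool in every library.

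The libraries of a genotype did not spread alike for all 10 genes. Lama5, Lamb1, Lamb2, Nid2 and Hspg2 were lowest in KO 3 and WT 2 of their groups, the libraries with the highest mitochondrial shares. On the log2 scale, KO 3 and WT 2 deviated from their own group means by -0.37 and -0.54 for Hspg2, by -0.29 and -0.45 for Lama5, and by -0.30 and -0.41 for Lamb2. The deviations were -0.15 and -0.12 for Lamb1, and -0.13 and -0.26 for Nid2. Nid1 deviated by -0.04 and 0.02 in the same libraries. Split by mitochondrial share, KO 1 and KO 2 against WT 1 and WT 3 gave log2 differences of mean CPM of -2.10 for Nid1, 2.02 for Lama1 and 0.60 for Lamb1. KO 3 against WT 2, with 1 library each, gave -2.19 for Nid1, 1.60 for Lama1 and 0.56 for Lamb1. For these 3 genes every KO library lay on 1 side of every WT library, so no split of the libraries could turn the direction. The difference of Hspg2 was 0.32 in the first class and 0.59 in the second, and that of Lama5 was 0.02 and 0.26.

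**Figure D3:**
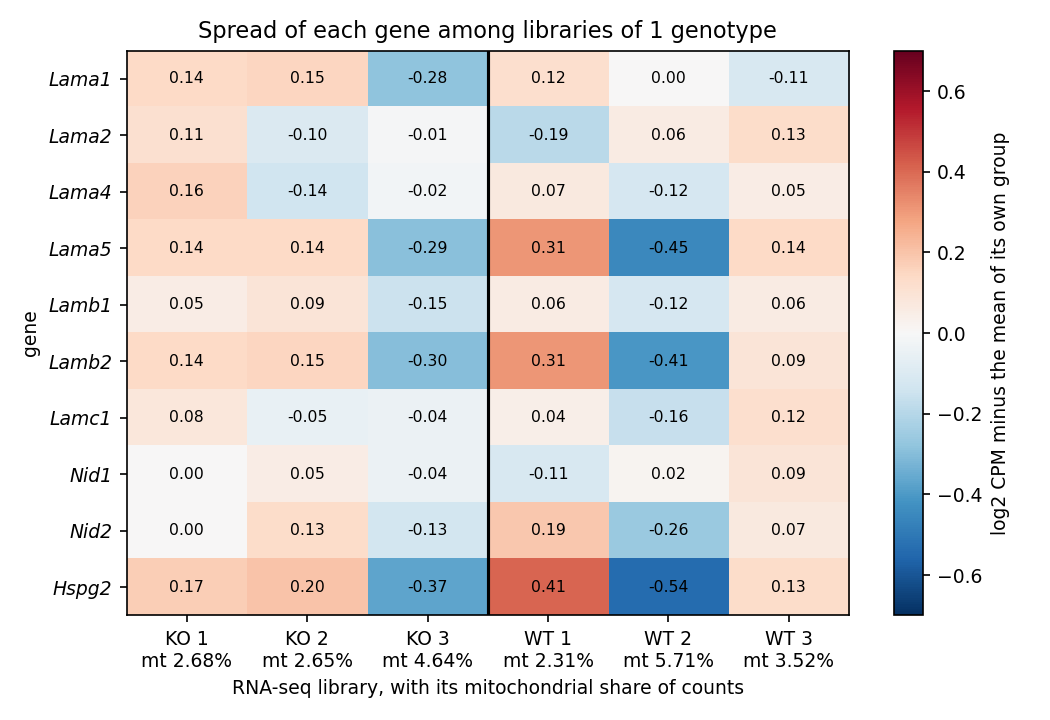
Deviation of each library from the mean of its own genotype, on the log2 CPM scale, for the 10 genes, with KO libraries left of WT libraries and the mitochondrial share of each library marked. KO 3 and WT 2 are low for Hspg2 (-0.37 and -0.54), Lama5 and Lamb2, and near 0 for Nid1 (-0.04 and 0.02).

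The genes whose pattern over the 6 RNA-seq libraries lay nearest to that of Nid1 and Lama1 were sought among 11673 genes. The measure was the root mean square distance of log2 CPM centred on each gene's mean. Before the logarithm, 1 CPM was added to every value, which shrinks the differences of genes at low levels. Nearest to Nid1 were Odad2, which encodes a protein of the docking complex of ciliary dynein arms, at a distance of 0.107, Riox2 itself at 0.131, and Gria4, an AMPA receptor subunit gene, at 0.166. Gria4 averaged 35.3 CPM in KO and 138 CPM in WT libraries, and Odad2 averaged 0.508 CPM in KO and 5.06 CPM in WT libraries. At these low levels Odad2 had an edgeR log2 fold change of -3.32, against -2.13 for Nid1. Nearest to Lama1 were Rab3b, which encodes a GTPase of vesicle exocytosis, at 0.106, Tagln2, an actin-binding protein gene, at 0.113, and Kcnk2, a potassium channel gene, at 0.124. Rab3b averaged 299.6 CPM in KO and 93.6 CPM in WT libraries, Tagln2 311 CPM in KO and 118 CPM in WT libraries, and Kcnk2 36.5 CPM in KO and 12.03 CPM in WT libraries. With 3 libraries per genotype, this likeness is mostly a likeness of the genotype difference.

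Around the 10 genes, 74 further genes of the basement membrane were listed, of which 64 were tested. Of these, 5 rose and 3 fell in KO, and 56 were not called, with a median log2 fold change of -0.04. Over all tested genes, 1.77% were called higher and 1.66% lower in KO, 3.43% in all, and the median log2 fold change was 0.01. The lists, like the 10 genes, were chosen with earlier results of these data known. Nothing is therefore read from their counts against that background. The calls lay among the other structural proteins and the proteases. Of 21 tested genes for collagen IV chains and other basement membrane proteins, 4 rose (Col18a1, Sparc, Col4a6 and Pxdn) and 2 fell (Npnt and Frem1). Of 18 tested proteases and inhibitors, Adamts4 rose and Timp4 fell. None of 3 tested laminin chains outside the group of 10, 10 laminin receptors and 12 genes of dystroglycan glycosylation was called by edgeR.

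Col18a1 encodes collagen XVIII, the heparan sulfate collagen from which endostatin is cut. It averaged 34.9 ± 7.61 CPM in KO and 13.0 ± 3.94 CPM in WT libraries, a log2 fold change of 1.43 (SE 0.25, edgeR adjusted p = 0.0211). Sparc, a collagen IV-binding matricellular protein gene, averaged 335 ± 25.9 CPM in KO and 197 ± 9.86 CPM in WT libraries, a log2 fold change of 0.77 (SE 0.10, edgeR adjusted p = 0.0073). Col4a6, a collagen IV chain gene, averaged 33.9 ± 2.99 CPM in KO and 20.2 ± 3.91 CPM in WT libraries, a log2 fold change of 0.75 (edgeR adjusted p = 0.0462). For these and for Pxdn, whose product peroxidasin cross-links collagen IV and whose log2 fold change was 0.50 (edgeR adjusted p = 0.0388), all 3 KO libraries were above all 3 WT libraries. The main collagen IV chains Col4a1 and Col4a2 were not called: Col4a1 averaged 16.5 ± 3.08 CPM in KO and 26.7 ± 7.71 CPM in WT libraries (edgeR adjusted p = 0.18), and Col4a2 averaged 5.85 ± 0.774 CPM in KO and 9.23 ± 2.07 CPM in WT libraries (edgeR adjusted p = 0.153). Their log2 fold changes were -0.70 for Col4a1 and -0.66 for Col4a2, and for both all 3 KO libraries were below all 3 WT libraries.

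Npnt, which encodes nephronectin, a ligand of an integrin of the kidney and other epithelia, averaged 30.5 ± 0.867 CPM in KO and 58.7 ± 3.12 CPM in WT libraries, a log2 fold change of -0.94 (SE 0.10, edgeR adjusted p = 0.00337). Frem1, a gene of the Fraser complex that anchors epithelia, averaged 11.7 ± 1.27 CPM in KO and 22.8 ± 1.28 CPM in WT libraries, a log2 fold change of -0.97 (SE 0.13, edgeR adjusted p = 0.00777). Both fell, with no overlap of the groups. Adamts4, a protease gene whose product cuts lecticans, averaged 63.7 ± 8.98 CPM in KO and 28.0 ± 6.65 CPM in WT libraries, a log2 fold change of 1.18 (edgeR adjusted p = 0.0165). Timp4, a metalloproteinase inhibitor gene, averaged 170.1 ± 4.12 CPM in KO and 237 ± 13.8 CPM in WT libraries, a log2 fold change of -0.48 (edgeR adjusted p = 0.0369).

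For the laminin receptors and the dystroglycan glycosylation genes, which had no call, the gene with the smallest p is given. Among the laminin receptors it was Itga7, the alpha subunit gene of a laminin-binding integrin, at 60.7 ± 11.3 CPM in KO and 35.6 ± 7.40 CPM in WT libraries (edgeR adjusted p = 0.0858). Among the dystroglycan glycosylation genes it was Pomgnt2, an enzyme gene of that pathway, at 21.1 ± 4.28 CPM in KO and 16.3 ± 3.30 CPM in WT libraries (edgeR adjusted p = 0.521). Dag1, the dystroglycan gene, averaged 501 ± 18.2 CPM in KO and 560 ± 64.2 CPM in WT libraries, and Itgb1, the beta subunit gene of the laminin-binding integrins, averaged 849.9 ± 112 CPM in KO and 901 ± 115 CPM in WT libraries, with edgeR adjusted p of 0.676 and 0.901.

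The count of 8 calls in these lists depended on single libraries: leaving out KO 1 or WT 3 left 1, leaving out KO 2 left 2 and leaving out WT 2 left 4. With the class of mitochondrial share as a covariate there were 21, where 10.5% of all tested genes were called. Npnt was called in every one of the 6 fits that left out a library, and Pxdn and Timp4 in none of them.

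**Figure D4:**
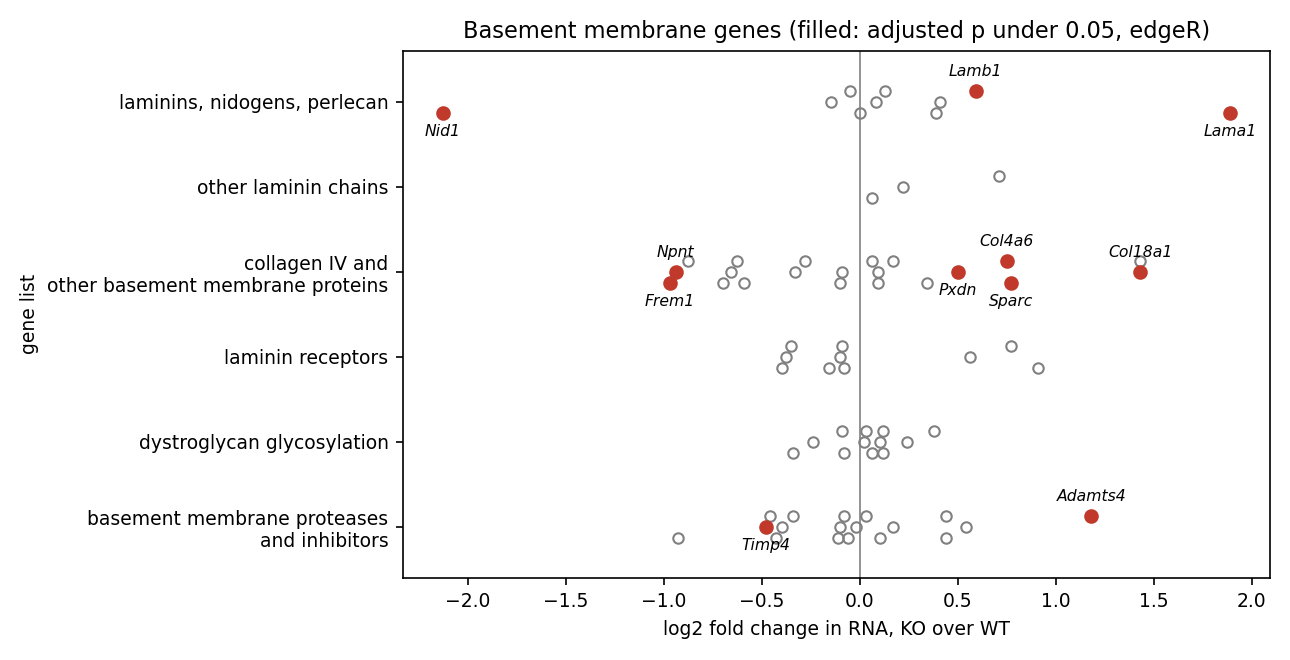
Log2 fold change, KO over WT, of the 64 tested genes of the basement membrane lists and of the 10 laminin, nidogen and perlecan genes, by list, with filled points for genes called by edgeR at an adjusted p under 0.05. Nid1 (-2.13) and Lama1 (1.89) lie further from 0 than every tested gene of the other lists, of which Col18a1 (1.43) is the highest called.

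Most listed markers of endothelium, pericytes, fibroblasts and meninges were under 1 CPM in all libraries, unlike those of astrocytes and of neural stem cells and radial glia. Of 10 endothelial genes, 8 were under 1 CPM in all libraries, and the list summed to 53.9 to 62.0 CPM in KO and 22.8 to 30.6 CPM in WT libraries, nearly all of it from Flt1. Flt1, a VEGF receptor gene, rose, at 56.4 ± 4.12 CPM in KO and 25.9 ± 4.02 CPM in WT libraries. Of 7 pericyte genes, 4 were under 1 CPM in all libraries, Pdgfrb among them, and the list summed to 116 to 161 CPM in KO and 68.1 to 116 CPM in WT libraries, mostly from Notch3. Of 8 fibroblast and meningeal genes, 6 were under 1 CPM in all libraries, and the list summed to 17.8 to 20.5 CPM in KO and 29.9 to 35.9 CPM in WT libraries, mostly from Foxc1. Foxc1 and Acta2 of that list fell and Twist1 rose, at 0.720 ± 0.186 CPM in KO and 0.107 ± 0.0579 CPM in WT libraries (edgeR adjusted p = 0.0252). Astrocyte markers summed to 1805 to 2196 CPM in KO and 2361 to 3057 CPM in WT libraries. Of these, Aldoc and S100b fell, and Gfap, not called, averaged 117.2 ± 10.75 CPM in KO and 91.09 ± 14.05 CPM in WT libraries. In the neural stem and radial glia list, Vim rose, at 3219 ± 450.8 CPM in KO and 1989 ± 222.1 CPM in WT libraries. Slc1a3 of that list fell, at 1683 ± 98.52 CPM in KO and 2333 ± 87.73 CPM in WT libraries, and its median log2 fold change was 0.02. The endothelial sum and the neural stem and radial glia sum were higher, and the fibroblast and astrocyte sums lower, in every KO than in every WT library, beside the changes of Nid1, Lama1 and Lamb1, and their part in those changes was not tested.

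CUT&Tag reads at the 10 genes gave no call. Of the 52 regions assigned to them, all were tested and 0 were called by edgeR at an adjusted p under 0.05, against 0.00722% of 69209 tested regions. DESeq2 gave an adjusted p to 3 of the 52 and to 6144 regions in all, and called 0 of the 3, against 0.130% of the 6144. At an unadjusted p under 0.05 there were 2, both at Lamc1, against 5.35% of all tested regions. By sign, 27 of the 52 regions (51.9%) were higher and 25 lower in KO, against 50.6% higher among all tested regions. The median log2 fold change was 0.02, and for all regions it was 0.01. The KO and WT libraries did not overlap in 18 of the 52, and in 34.7% of all regions. The adjusted p ranged over 0.902 to 0.999, with 6 to 117 reads per region and library.

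The regions were spread unevenly over the genes. Lama2 had 12, Lama4 8, Lama1 and Lamc1 7 each, Lama5 and Hspg2 6 each, and Lamb1, Nid1 and Nid2 2 each, while Lamb2 had none. By the deposited annotation, 31 lay in introns (59.6%, against 35.9% of all regions), 12 at promoters (23.1%, against 30.5%), 5 in exons (9.62%, against 2.66%) and 3 in distal intergenic sequence (5.77%, against 28.0%). Of the 52, 7 lay within 1 kb of the transcript start they were assigned to, which can lie inside the gene, and 40 more than 3 kb from one. Laminin genes are long, with many introns, and gene length was not adjusted for in these shares.

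A region covered the start itself at Lama1, Lama2, Lamc1 and Nid2, and 1 ended 81 bp before that of Hspg2. At Lama1 it was chr17:68003834-68004280, with 77 and 72 reads in KO 1 and 2, against 78 and 57 reads in WT 1 and 2. These groups overlapped, and the log2 fold change was -0.17 (SE 0.25, 95% interval -0.66 to 0.32), beside an RNA log2 fold change of 1.89, a different measure. At Lamc1 it was chr1:153208467-153209280, the best covered of the 52, with 117 and 95 reads in KO, against 115 and 110 reads in WT libraries. Scaled to all reads in regions, it was lower in both KO libraries, at 28.4 ± 0.268 CPM in KO and 37.6 ± 0.615 CPM in WT libraries (SD, n = 2 each). The log2 fold change was -0.41 (SE 0.20), with an unadjusted edgeR p of 0.0467 and an adjusted p of 0.932.

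At Lama2, chr10:27492583-27493022 had 64 and 64 reads in KO, against 29 and 51 reads in WT libraries, a log2 fold change of 0.36 (SE 0.30). At Nid2, chr14:19800911-19801452 had 102 and 71 reads in KO, against 68 and 106 reads in WT libraries (log2 fold change -0.34, SE 0.23). At Hspg2, chr4:137195642-137195999 had 61 and 64 reads in KO, against 56 and 63 reads in WT libraries (log2 fold change -0.24, SE 0.27). None of these 3 was called.

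Nid1, the gene with the largest RNA difference of the 10, had no region at its start. Its nearest was chr13:13608030-13608229, 3907 bp upstream in distal intergenic sequence, with 39 and 18 reads in KO, against 22 and 16 reads in WT libraries. The other was chr13:13616437-13616723, in intron 1 of 19, with 38 and 12 reads in KO, against 27 and 12 reads in WT libraries. In both, the 2 KO libraries were further apart from each other than the genotypes were, and the log2 fold changes were 0.24 (SE 0.52) and 0.01 (SE 0.54).

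The nearest regions of the other genes, by the deposited distance to a transcript start, did not cover one. That of Lama4 was chr10:38930780-38930979, 979 bp from the start of an internal transcript, with 33 and 29 reads in KO, against 18 and 24 reads in WT libraries. Further upstream in Lama4, chr10:38843024-38843296 lay 1356 bp from another start. It had 47 and 29 reads in KO, against 36 and 36 reads in WT libraries (log2 fold change -0.25, SE 0.37), and was not called. That of Lamb1 was chr12:31376080-31376393, 2560 bp from the start of an internal transcript to which it was assigned, with 26 and 35 reads in KO, against 15 and 44 reads in WT libraries. The other Lamb1 region lay in exon 32 of 34, so no region lay at the start of the Lamb1 gene itself. That of Lama5 was chr2:179870571-179870781, 2919 bp upstream, with 46 and 51 reads in KO, against 50 and 60 reads in WT libraries. The log2 fold changes of the nearest regions were 0.24 (SE 0.48), -0.27 (SE 0.42) and -0.49 (SE 0.30) for Lama4, Lamb1 and Lama5 in that order, and none was called.

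The region with the smallest p of the 52 was lower in KO and lay in intron 13 of 27 of Lamc1, chr1:153120994-153121227. It had 29 and 22 reads in KO, against 44 and 35 reads in WT libraries, and the log2 fold change was -0.95 (SE 0.41) with an unadjusted edgeR p of 0.0193 and an adjusted p of 0.902. Among regions lower in KO, it was followed by the Lamc1 start region and the upstream Lama5 region given above. The 3 regions with the smallest p among those higher in KO were in the 3′ UTR of Lamc1 (chr1:153095346-153095650), in intron 3 of 96 of Hspg2 (chr4:137230844-137231043) and in intron 3 of 62 of Lama1 (chr17:68029513-68029927). Their log2 fold changes were 0.80 at Lamc1, 0.52 at Hspg2 and 0.41 at Lama1, and their edgeR adjusted p was 0.933 each. The Lama1 region had 77 and 67 reads in KO, against 43 and 44 reads in WT libraries. Lamc1 thus held regions at both ends of the ordering by sign, and none passed the adjusted threshold.

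Summed over all regions of a gene, 0 of 9 genes were called by edgeR, against 0.117% of 13639 genes, and DESeq2 called 0 of the 9, against 0.00733% of all genes. At an unadjusted edgeR p under 0.05 there was 1, Lama2, against 7.68% of all genes. Lama2 had 449 and 391 reads in KO, against 273 and 272 reads in WT libraries, or 202 ± 6.48 CPM in KO and 158 ± 5.65 CPM in WT libraries (SD, n = 2 each). Both KO libraries were above both WT libraries, as the groups were apart for 37.3% of all genes. By sign, 10 of its 12 regions were higher in KO, against 50.6% of all tested regions, but these regions come from the same libraries and are not separate evidence. The log2 fold change of the Lama2 sum was 0.35 (SE 0.12, 95% interval 0.12 to 0.59) with an unadjusted edgeR p of 0.00291 and an adjusted p of 0.401.

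For the genes with a called RNA difference, the sums gave smaller values. Nid1 had 77 and 30 reads in KO, against 49 and 28 reads in WT libraries, a log2 fold change of 0.18 (SE 0.33) whose 95% interval of -0.47 to 0.83 does not reach the RNA value of -2.13. Lama1 averaged 153 ± 12.1 CPM in KO and 139.8 ± 9.81 CPM in WT libraries, and its log2 fold change of 0.13 (95% interval -0.13 to 0.39) lay under the RNA value of 1.89. For Lamb1 the log2 fold change was -0.10 with an interval of -0.69 to 0.49, too wide to set apart from the RNA value of 0.59 (SE 0.11). The Lamb1 sum holds no region at the start of the gene, only regions in and near exon 32 of 34. The intervals rest on 2 libraries per genotype. The labels give no antibody, so CUT&Tag and RNA fold changes need not be of 1 size. These intervals therefore do not test the RNA differences. The sums of Lama4, Lama5, Lamc1, Nid2 and Hspg2 had log2 fold changes of -0.08, -0.16, -0.10, -0.16 and 0.04, all uncalled. Because reads are relative to all reads in regions, a gain or loss common to all regions cannot be measured.

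**Figure D5:**
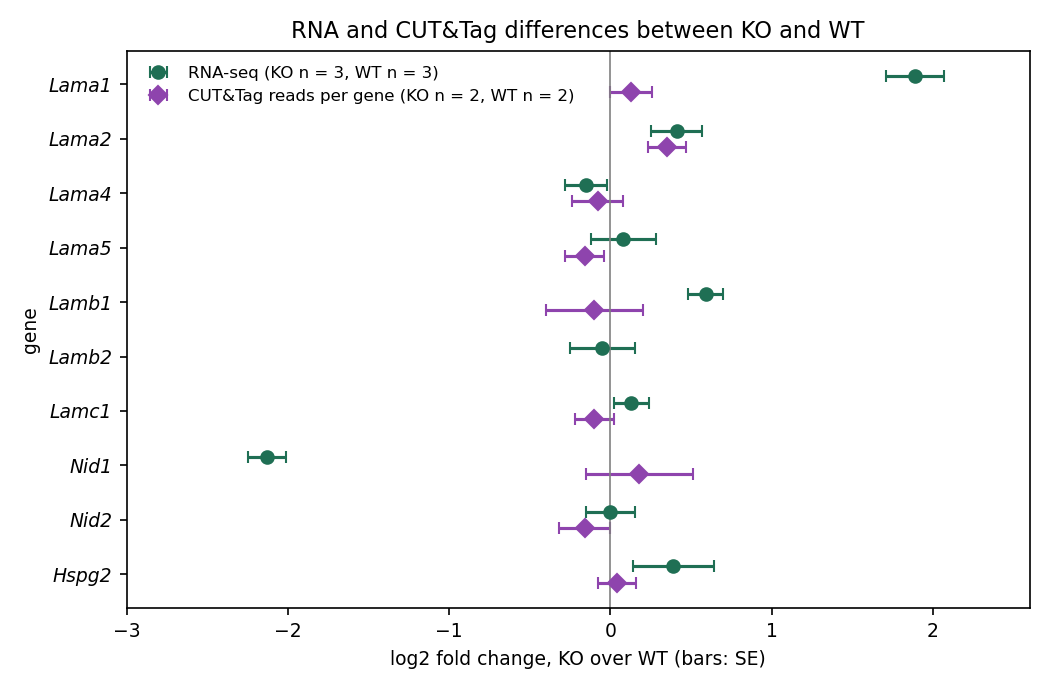
Log2 fold change, KO over WT, of RNA (circles, 3 libraries per genotype) and of CUT&Tag reads summed per gene (diamonds, 2 libraries per genotype), with bars for the SE. Nid1 and Lama1 lie at -2.13 and 1.89 in RNA and at 0.18 and 0.13 in CUT&Tag, and Lamb2 has no CUT&Tag region.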

How the data were processed

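RNA-seq of poly(A) RNA made with a stranded kit, per the labels' protocols, was deposited as 1 table of expected counts per Ensembl gene. These counts were not scaled by the authors, and they are whole for all of the 10 genes except Nid2. HISAT2, StringTie and the GRCm39 build are listed, per the submitters' processing notes. The sources used here do not give the counter, whether it used strand, the annotation or the peak caller. CUT&Tag was deposited as whole-number counts of reads per region, with the authors' annotation, assigned gene and distance to the start (a signed score in bp).

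Expected counts were rounded. Each assay was fitted over its whole table with edgeR 4.0.16 in R 4.3.3 (TMM scaling, filterByExpr with a minimum count of 10, robust quasi-likelihood test, KO over WT), with Benjamini-Hochberg adjustment over all tested features and a threshold of 0.05. The fits were tested on simulated counts with a fixed dispersion, in which libraries differed only by size and genotype. That test does not cover a spread such as the one seen here with mitochondrial share. The SE is the log2 fold change divided by the square root of F, and 95% intervals are 1.96 SE to each side. CPM are TMM-scaled. Reads per gene sum all regions assigned to it. Libraries were grouped by their genotype labels, and replicate numbers did not pair them. For likeness, 1 CPM was added before the logarithm, and the mean log2 CPM had to reach 1. DESeq2 1.42.0, other scalings and filters, a replicate block, a covariate for mitochondrial share and leaving out each library were tried as alternatives. Named were the 10 genes, each called gene of the lists and, in lists with no call, the gene with the smallest p, the 3 genes most like Nid1 and like Lama1, the region nearest each start and, in each direction, the 3 regions of smallest p. Col4a1, Col4a2, Dag1, Itgb1, the second Nid1 and Lamb1 regions, the upstream Lama4 region and the markers were named in addition. A gene that this rule names is not reported here. The 10 genes and the lists were chosen with earlier results of these data known.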

Additional observations from a re-analysis of the deposited data

How the results depend on the processing

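Under other scalings, filters and tools, 2 to 4 of the 10 genes were called in RNA-seq, and 2 to 3 when a library was left out; Nid1 and Lama1 were called in every fit, and no gene or region of the 10 was called in CUT&Tag in any. Over all genes the count of 525 became 958 with DESeq2, 1605 with the mitochondrial class as covariate, 1695 with the leading component class as covariate (KO 3, WT 2 and WT 3 against the others) and 145 to 506 without 1 library. In the basement membrane lists the 8 calls became 21 with the mitochondrial class, 17 with the leading component class and 1 to 8 without 1 library. The 5 CUT&Tag regions became 8 with DESeq2 and 1 to 15 without 1 library, and the 16 genes became 1 with DESeq2, 3 with regions within 3 kb of a start and 3 to 21 without 1 library. The leading component class and leaving out both libraries of high mitochondrial share were chosen after seeing the data.

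Same-numbered RNA-seq libraries deviated from their group means with correlations of 0.609, -0.517 and 0.312, and the CUT&Tag ones with 0.016, so the numbers were not taken as pairs, and not every library correlated best with its own number. With a replicate block, calls numbered 229 over all genes, 4 in the lists and 9 over CUT&Tag regions, and Lamb1, Col4a6, Col18a1, Pxdn and Timp4 had adjusted p of 0.104, 0.0768, 0.0586, 0.112 and 0.101 (edgeR).

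Signs turned only for uncalled differences, in CUT&Tag at times over a wide range when 1 library was left out. In RNA, Lama5 was -0.06 with the leading component class and -0.12 to 0.24 without 1 library, and Lamb2 was -0.24 to 0.12 without 1 library. Nid2 was -0.0059 with RLE factors, -0.006 with DESeq2, -0.009 with no filter, -0.00081 with a 1 CPM filter, -0.07 with the leading component class, -0.06 without the libraries of high mitochondrial share and -0.12 to 0.10 without 1 library. In CUT&Tag sums, Lama1 was -0.07 and Lama4 0.02 within 3 kb, and without 1 library Lama4 was -0.21 to 0.05, Lamb1 -0.66 to 0.35, Nid1 -0.49 to 0.60, Nid2 -0.31 to 0.00062 and Hspg2 -0.11 to 0.20. For regions nearest the start, without 1 library, Lama1 was -0.33 to 0.02, Lama2 -0.03 to 0.88, Lamb1 -0.88 to 0.77, Nid1 -0.25 to 0.58 and Nid2 -0.67 to 0.07. Nid1 has no region within 3 kb and so no value there. Col4a6 with library totals (adjusted p = 0.0503) and Pxdn with no filter (0.0667) missed the edgeR threshold, and Hspg2 passed it with the mitochondrial class. The cause of these shifts was not tested. The CUT&Tag values are limited by 2 libraries per genotype and by 6 to 117 reads per region and library.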
